A study of Mus musculus with 8 samples.

Results

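The 39 Hox genes of the mouse were followed in the RNA of whole embryonic hearts. They were chosen by name, as protein-coding genes with a symbol made of Hox, a cluster letter from a to d and a number, and all 39 were found among the 27179 genes of the deposited count table. By the labels, hearts were collected at E10.5, the embryonic day at which the looped heart tube is forming its chambers. Of the 8 libraries, 5 came from Kat6a+/+ embryos (Kat6a WT) and 3 from embryos labelled Kat6a-/- (Kat6a KO). The protein of Kat6a, or Moz, places acetyl groups on histones. No source used here names the deleted exons, the strain, the litters, or whether a library held 1 heart or several; each library is called a heart below.

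Hox genes encode transcription factors that bind DNA through a homeodomain and give cells their position along the head-to-tail axis. They lie in 4 clusters, and members with the same number in different clusters are paralogs. Genes at the 3' end of a cluster, with low numbers, are known to be switched on earlier and further forward in the embryo than genes at the 5' end, with high numbers. Retinoic acid induces the 3' genes, and in the heart region they are known from progenitors of the second heart field that build the outflow tract and the venous pole. Mouse embryos without Kat6a are known for altered Hox expression along the body axis. The comparison asks whether Hox RNA in the heart differed when Kat6a was lost.

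Total counts ran from 19911803 to 34539787 per heart. Values below are raw read counts or CPM, counts relative to the scaled size of the library, given as mean ± SD with n = 5 Kat6a WT and n = 3 Kat6a KO hearts. The targeted gene does not check the labels: Kat6a stood at 138, 144, 143, 141 and 156 CPM in Kat6a WT and 141, 133 and 137 CPM in Kat6a KO hearts (adjusted p = 0.529, edgeR quasi-likelihood test), and reads summed over all exons cannot tell a partly deleted gene from an intact one. Cardiomyocyte markers were abundant in each heart, with a summed level of 31215 to 36559 CPM over 8 genes, of which Tnni3 rose (adjusted p = 0.0492, edgeR quasi-likelihood test). Kat6a WT replicates 4 and 5 had Xist RNA and the other 6 hearts had Y-linked Ddx3y RNA, so all Kat6a KO hearts were of the latter kind. Kat6a WT replicate 5 stood apart in Hox RNA, and values without it are given for the tested genes where it could be left out. P-values measure only the spread between these libraries.

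Little Hox RNA was present, and nearly all of it came from the 3' ends of 2 clusters. The 39 genes took 3059 of 204576070 counts over the 8 hearts. The Hoxb cluster (chromosome 11, 96194316 to 96368254, mm10) held 69.3% of these Hox counts and the Hoxa cluster (chromosome 6) held 25.9%. The Hoxc cluster (chromosome 15, 102921131 to 103036856) held 3.11% and the Hoxd cluster (chromosome 2, 74668225 to 74765142) 1.67%. The 15 genes of paralog groups 1 to 5 gave 95.6% of the Hox counts, and the 24 genes of groups 6 to 13 gave 135 counts together. All 15 genes of groups 1 to 5 had at least 1 count in some heart. Of the 24 others, 13 had none in any heart, which over all hearts together allows a level of up to 0.0147 CPM for each: Hoxa6, Hoxa11, Hoxb6, Hoxb8, Hoxb13, Hoxc9, Hoxc10, Hoxc11, Hoxc12, Hoxd9, Hoxd10, Hoxd11 and Hoxd12. Such limits cover counting error only.

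**Figure D1:**
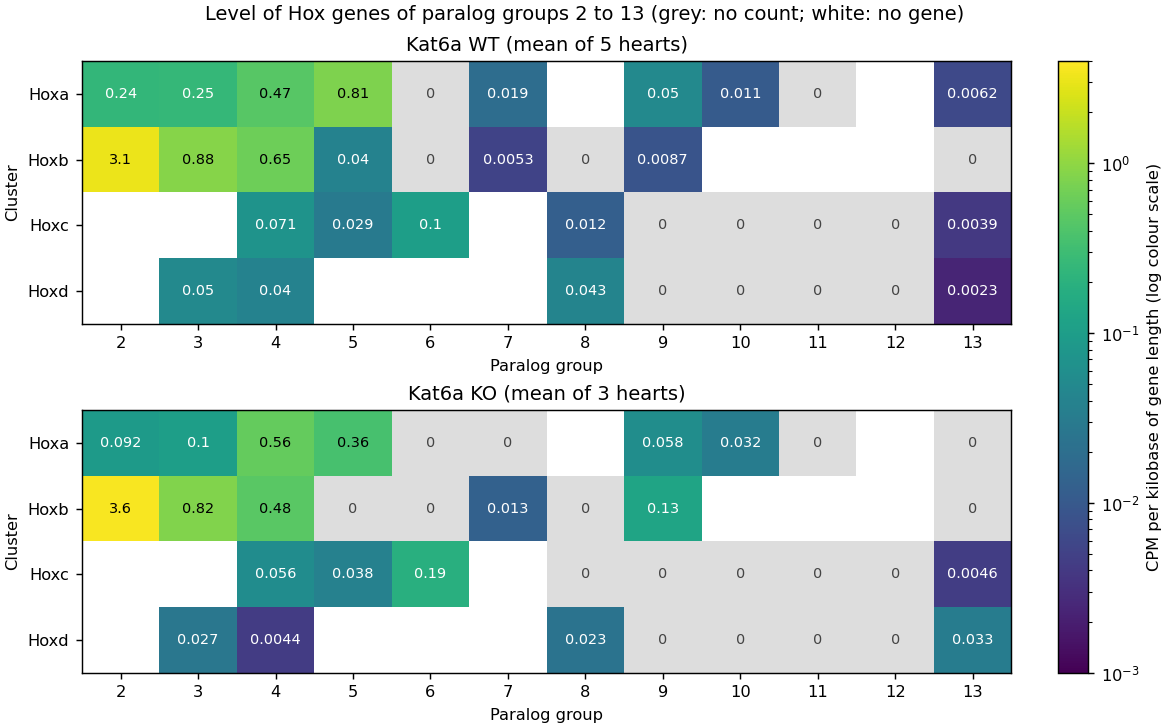
Mean level of each Hox gene of paralog groups 2 to 13 in CPM per kilobase of the deposited gene length, by cluster (rows) and paralog group (columns), in 5 Kat6a WT hearts (top) and 3 Kat6a KO hearts (bottom), on a log colour scale. Grey squares are genes with no count and white squares are positions where the cluster has no gene; the brightest squares in Kat6a WT are Hoxa2 to Hoxa5 and Hoxb2 to Hoxb4, and Hoxb2 is brightest in both genotypes.

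Counts allowed a test for 8 of the 39 genes, among them Hoxa2 to Hoxa5 and Hoxb2 to Hoxb4. These 8 carried 92.2% of the Hox counts, and the other 18 genes with any count had between 1 and 47 counts over all hearts. Levels between genes were compared per kilobase of gene length. Hoxb2 stood at 3.12 ± 0.622 CPM per kilobase in Kat6a WT hearts. By its mean over all 8 hearts, it was above 31.1% of all genes tested. Its lowest Kat6a WT heart, at 2.48, was above the highest value of Hoxb3 (1.34), the next gene in the order. Hoxb3 stood at 0.879 ± 0.286, Hoxa5 at 0.810 ± 1.20, Hoxb4 at 0.650 ± 0.368 and Hoxa4 at 0.470 ± 0.698 CPM per kilobase. Hoxa3 (0.251 ± 0.207) and Hoxa2 (0.241 ± 0.102) were lowest of the tested genes. In Kat6a WT replicate 5 alone, Hoxa5 reached 2.91. From Hoxb3 to Hoxa2, neighbours among these genes did not differ beyond their spread between hearts.

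Upstream sequence is shown for the tested Hox genes of smallest p in the comparison of genotypes, Hoxa2, Hoxb2, Hoxa3 and Hoxb4, as far as the RefSeq promoter table (build GRCm38.p6, which mm10 denotes) holds them. Hoxb2 has no entry. The windows are the 250 bases before the annotated start, 5′ to 3′ on the strand of the gene, with CG dinucleotides, the sites of vertebrate DNA methylation, in capitals. They lie at chr6:52164832-52165081 (minus strand), chr6:52213068-52213317 (minus strand, the start of the longest Hoxa3 transcript unit) and chr11:96318017-96318266 (plus strand).
Hoxa2: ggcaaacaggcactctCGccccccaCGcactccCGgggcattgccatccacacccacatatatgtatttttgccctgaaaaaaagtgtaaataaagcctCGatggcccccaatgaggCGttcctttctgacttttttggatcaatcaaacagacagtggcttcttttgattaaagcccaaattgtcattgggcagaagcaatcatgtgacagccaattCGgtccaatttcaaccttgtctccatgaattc
Hoxa3: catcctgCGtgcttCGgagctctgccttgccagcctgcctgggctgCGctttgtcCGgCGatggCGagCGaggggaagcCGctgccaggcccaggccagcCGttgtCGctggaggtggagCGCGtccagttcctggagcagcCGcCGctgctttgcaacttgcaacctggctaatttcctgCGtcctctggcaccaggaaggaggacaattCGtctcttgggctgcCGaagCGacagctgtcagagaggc
Hoxb4: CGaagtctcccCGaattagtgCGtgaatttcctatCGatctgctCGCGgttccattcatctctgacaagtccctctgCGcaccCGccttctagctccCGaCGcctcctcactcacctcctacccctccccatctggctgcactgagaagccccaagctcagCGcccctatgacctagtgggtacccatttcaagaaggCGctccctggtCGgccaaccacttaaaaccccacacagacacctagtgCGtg
The windows hold 6, 18 and 14 CG dinucleotides for Hoxa2, Hoxa3 and Hoxb4. Over the 24 windows of the 22 Hox genes in the table the median was 12.5, against 6 over all 32851 windows. It was 16 in the windows of the 4 tested Hox genes that the table holds and 12 in those of genes too low to test. The motif TGATNNAT, a form of the site bound jointly by Hox and Pbx proteins, was found on either strand in 16.7% of Hox windows and in 7.68% of all windows, and the Hoxa2 window holds it. The half-site AGGTCA of nuclear receptors such as the retinoic acid receptors was found in 6 of the 24 Hox windows and in 14.0% of all windows, and the Hoxb4 window holds it. These are matches of letters in short windows.

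No tested Hox gene passed the threshold between genotypes. At a threshold of 0.05, adjusted by Benjamini-Hochberg over 15086 genes in the quasi-likelihood test of edgeR, 0 of the 8 rose and 0 fell, where 2.67% of all genes tested passed, 1.44% higher and 1.23% lower in Kat6a KO. None had an unadjusted p under 0.05 in the main edgeR fit, where 14.2% of all genes did, or in DESeq2, and 1 did in limma voom. In other edgeR fits, 2 did without Kat6a WT replicate 1 and 2 without Kat6a WT replicate 5 and Kat6a KO replicate 3 together. Leaving out Kat6a WT replicate 5 alone, or Kat6a KO replicate 3 alone, or adding the replicate block, gave 1 each. The values of the 3 Kat6a KO hearts overlapped those of the 5 Kat6a WT hearts in all 8 genes, while 9.59% of all genes tested had groups that did not overlap. The median log2 fold change of the 8 genes was -0.28, with 6 below 0 and 2 above, beside 0.00 over all genes tested. That median moved to -1.10 without Kat6a KO replicate 3 and to 0.10, over the 5 genes that could then be tested, without Kat6a WT replicate 5. Hoxa2 and Hoxa3 passed the count filter through their Kat6a WT hearts, so their signs below 0 are partly set by that filter. With no count filter the median over 26 Hox genes was -0.19. In whole hearts, fewer cells with a transcript and less RNA per cell cannot be told apart.

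**Figure D2:**
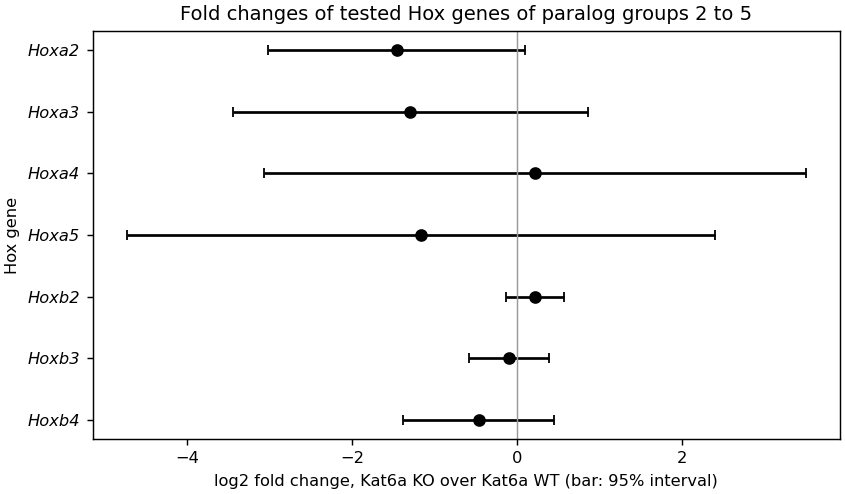
Log2 fold change of 7 tested Hox genes, Kat6a KO over Kat6a WT (points), with its 95% interval by the edgeR quasi-likelihood test (bars). All 7 intervals include 0; that of Hoxb2 is narrowest, from -0.13 to 0.57, and that of Hoxa5 widest, from -4.73 to 2.41.

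Hoxb2 was the best measured. It acts in the hindbrain and its neural crest together with its paralog Hoxa2 (Hoxb2, Entrez gene 103889, chromosome 11, 96351632 to 96354020). It stood at 4.94, 4.88, 4.81, 4.05 and 6.79 CPM in Kat6a WT replicates 1 to 5 and at 6.12, 6.40 and 5.26 CPM in Kat6a KO replicates 1 to 3. The Kat6a KO values lay above 4 of the 5 Kat6a WT values and under that of replicate 5. The log2 fold change was 0.22 ± 0.17 (SE; adjusted p = 0.615, edgeR quasi-likelihood test). Its interval reaches from 0.914-fold to 1.48-fold. Without Kat6a WT replicate 5 it was 0.34 (adjusted p = 0.374).

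Hoxb3 (chromosome 11, 96307101 to 96347930), a gene of the hindbrain and of thyroid, thymus and parathyroid formation, varied more among Kat6a WT than among Kat6a KO hearts. It stood at 3.32, 2.92, 3.10, 2.04 and 4.97 CPM in Kat6a WT and 2.98, 3.00 and 3.19 CPM in Kat6a KO hearts. All 3 Kat6a KO values fell inside the Kat6a WT range. The log2 fold change was -0.10 ± 0.23 (SE; adjusted p = 0.906, edgeR quasi-likelihood test), with a 95% interval from -0.59 to 0.38. Without Kat6a WT replicate 5 it was 0.10 (adjusted p = 0.914). Hoxb4 (chromosome 11, 96318267 to 96321638), known for its use in expanding blood stem cells, lies within the span of Hoxb3, so reads of the 2 genes could be shared. Hoxb4 stood at 0.541, 1.20, 2.09, 1.48 and 3.03 CPM in Kat6a WT and 0.903, 1.37 and 1.39 CPM in Kat6a KO hearts. Again the Kat6a KO hearts lay inside the Kat6a WT range, and the log2 fold change was -0.46 ± 0.43 (SE; adjusted p = 0.696, edgeR quasi-likelihood test; 95% interval -1.38 to 0.45). Without Kat6a WT replicate 5 that of Hoxb4 was -0.14 (adjusted p = 0.929).

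**Figure D3:**
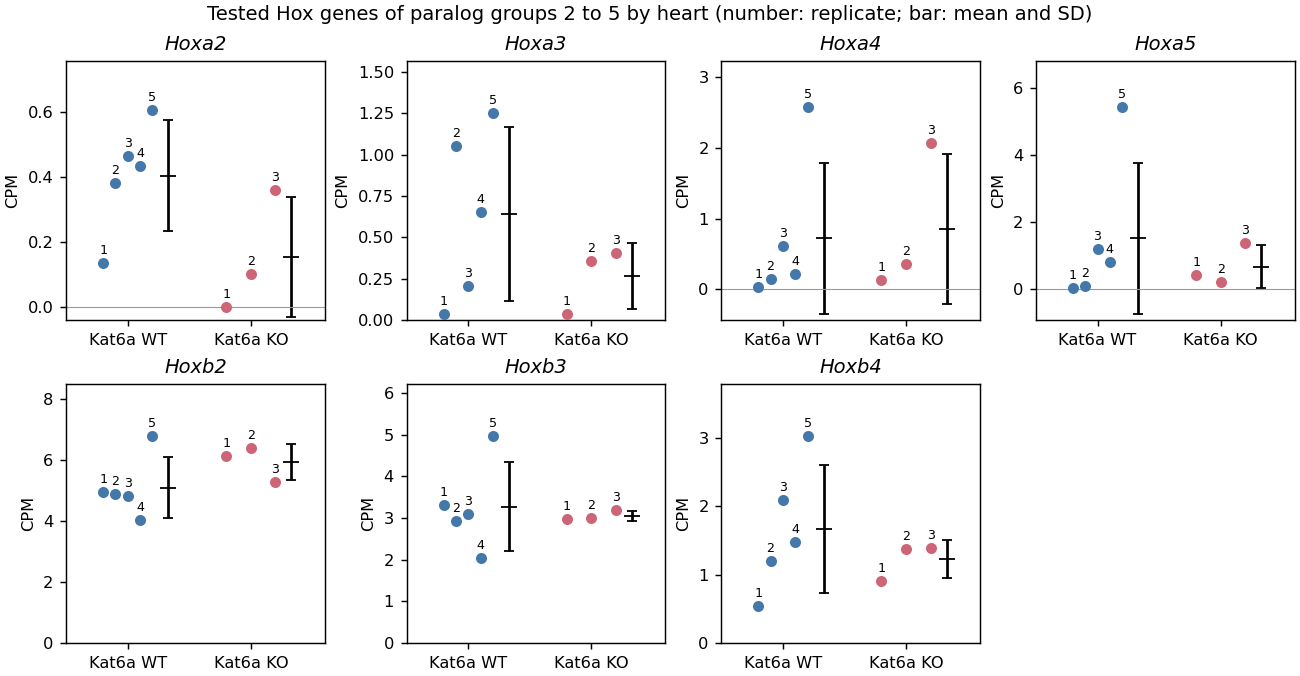
CPM of 7 tested Hox genes in each heart (points, with the replicate number), with the mean and SD of the group (bars to the right). Kat6a WT replicate 5 is the highest of all 8 hearts in each of the 7 genes, and the 2 groups overlap in each gene.

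In the Hoxa cluster, Hoxa2, a selector gene of the second pharyngeal arch, had the smallest p of the 8 genes that passed the count filter. Its raw counts were 4, 8, 16, 10 and 15 in Kat6a WT and 0, 2 and 8 in Kat6a KO hearts, or 0.405 ± 0.172 and 0.154 ± 0.186 CPM. The groups overlapped through Kat6a WT replicate 1 and Kat6a KO replicate 3. The log2 fold change was -1.46 ± 0.75 (SE; adjusted p = 0.392, edgeR quasi-likelihood test; 95% interval -3.01 to 0.10). It was -3.15 without Kat6a KO replicate 3 (adjusted p = 0.163) and -0.75 without Kat6a KO replicate 1 (adjusted p = 0.795), and Hoxa2, like Hoxa3 and Hoxa4, did not pass the count filter without Kat6a WT replicate 5. Its paralog Hoxb2 had a log2 fold change above 0, so the 2 genes of paralog group 2 had opposite signs, and neither passed.

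Hoxa3, needed for the third pharyngeal arch and its arteries, had 1, 22, 7, 15 and 31 counts in Kat6a WT and 1, 7 and 9 in Kat6a KO hearts. Both groups held a heart with a single count, and the log2 fold change was -1.29 ± 0.97 (SE; adjusted p = 0.623, edgeR quasi-likelihood test; 95% interval -3.44 to 0.86). It ran from -1.82 without Kat6a KO replicate 3 to -0.68 without Kat6a KO replicate 1. The annotated span of Hoxa3 takes in Hoxa4, Hoxa5 and Hoxa6, so reads of Hoxa3, Hoxa4 and Hoxa5 could be shared.

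Hoxa4 and Hoxa5, neighbours in the cluster, varied most from heart to heart. Hoxa5 takes part in the patterning of the lung and of the neck vertebrae. Hoxa4 had 1, 3, 21, 5 and 64 counts in Kat6a WT and 4, 7 and 46 in Kat6a KO hearts, and Hoxa5 had 1, 2, 41, 19 and 135 counts in Kat6a WT and 13, 4 and 31 in Kat6a KO hearts. Both genes were highest in Kat6a WT replicate 5, and Kat6a KO replicate 3 held the second highest CPM of each. Among Kat6a WT hearts the counts varied far beyond counting error: chi-square, divided by its degrees of freedom, was 40.0 for Hoxa4 and 84.8 for Hoxa5, against 4.97 for Hoxb2. The log2 fold changes were 0.22 ± 1.36 for Hoxa4 (SE; adjusted p = 0.968, edgeR quasi-likelihood test) and -1.16 ± 1.47 for Hoxa5 (adjusted p = 0.810). Their 95% intervals ran from -3.07 to 3.50 and from -4.73 to 2.41, so changes of several-fold either way were not detectable with these hearts. Without Kat6a WT replicate 5 the log2 fold change of Hoxa5 was 0.27 (adjusted p = 0.953), and without Kat6a KO replicate 3 that of Hoxa4 was -1.63 (adjusted p = 0.786).

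Summed over all 39 genes, Hox RNA stood at 10.52, 14.1, 14.4, 10.8 and 27.8 CPM in Kat6a WT and at 12.4, 15.0 and 15.9 CPM in Kat6a KO hearts. The Kat6a KO hearts lay within the Kat6a WT range, and Kat6a WT replicate 5 lay well above the other 7 hearts. The excess of that heart was widest in the Hoxa cluster, with 11.2 CPM against 1.15 to 3.65 CPM in the other Kat6a WT and 1.41 to 4.72 CPM in the Kat6a KO hearts. In the Hoxb cluster it had 15.5 CPM, against 7.57 to 10.3 CPM in the other Kat6a WT and 10.2 to 11.1 CPM in the Kat6a KO hearts. By paralog group, its sum was 6.02 CPM in group 5 and 6.22 CPM in group 4, against at most 1.31 and 2.70 CPM in the other Kat6a WT and 1.71 and 3.64 CPM in the Kat6a KO hearts. Of the 18 genes with counts too low to test, 5 also had their highest CPM in this heart. Tbx4, a T-box gene of the hindlimb, lung and allantois, stood at 2.30 CPM in this heart and at 0.301 to 1.20 CPM in the other 7, and Pitx1, a gene of the hindlimb, at 3.03 CPM against 0.169 to 1.63 CPM. These were named after their values were seen. Of the same 8 limb and flank markers, Alx4 and Prrx1 were lowest of the Kat6a WT hearts here, at 0.606 and 8.40 CPM. The list summed to 206.8 CPM, beside 206.6 CPM in Kat6a WT replicate 2. Most of the sum in replicate 5 came from Hand2 (151.7 CPM) and Tbx3 (37.2 CPM), so it hardly registers markers at a few CPM. The summed level of 8 foregut and pharyngeal endoderm markers was 0.848 CPM in this heart, within the 0.711 to 1.22 CPM of the other Kat6a WT hearts, and that of 8 somite and body wall markers, of which Myf5 and Uncx had no count in any heart, was 8.28 CPM against 7.85 to 17.6 CPM. Sox2 gave 0.525 CPM of the foregut sum in this heart, and Meox1 6.99 CPM of the somite sum. The part of limb, flank, foregut or somite tissue in the Hox values of this heart was not tested. Without it, 5 Hox genes could be tested and 0 passed.

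**Figure D4:**
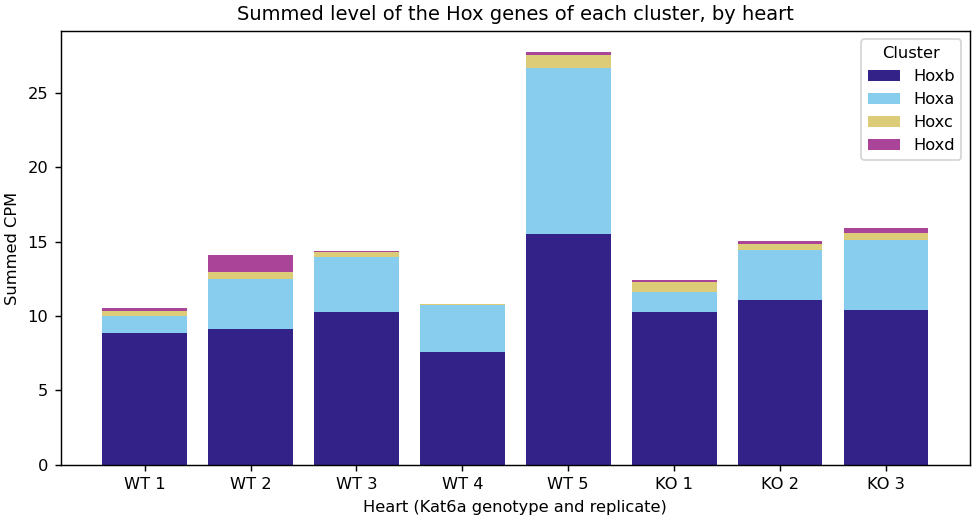
CPM summed over the Hox genes of each cluster in each heart (stacked bars). Kat6a WT replicate 5 reaches 27.8 CPM, while the other 7 hearts lie between 10.52 and 15.9 CPM.

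The genes of paralog groups 6 to 13, which belong to the trunk and tail, were at the limit of detection. Hoxc6 had most counts of them, 10, 3, 9, 1 and 1 in Kat6a WT and 16, 7 and 0 in Kat6a KO hearts, with values from low to high in both groups. Hoxa9 had 0, 2, 2, 2 and 8 counts in Kat6a WT and 0, 6 and 2 in Kat6a KO hearts. Summed over the 24 genes, the level was 0.348 to 0.670 CPM in Kat6a WT and 0.720 to 1.42 CPM in Kat6a KO hearts, with no overlap. Of all single genes with a count, 7.77% had groups that did not overlap. The sums rest on 14, 14, 14, 8 and 14 raw counts in Kat6a WT and 27, 28 and 16 in Kat6a KO hearts. Without Hoxb9 the sums overlapped, at 0.348 to 0.622 CPM and 0.180 to 1.17 CPM. The division between groups 5 and 6 was made after the values were seen.

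Hoxb9 (chromosome 11, 96271330 to 96276595), a gene of the thoracic region, was the 1 gene of the 26 Hox genes with any count whose groups did not overlap, against 7.77% of all genes with a count and 2.67% of those under the count filter. It had 0, 1, 1, 0 and 1 counts in Kat6a WT and 7, 5 and 12 counts in Kat6a KO hearts. Each Kat6a KO heart thus held more than all 5 Kat6a WT hearts together, while the next gene on its 3' side, Hoxb8, had no count in any heart and Hoxb7 had 2. Per total count, 24 against 3 counts is a ratio of 14.7, with an exact 95% interval of 4.47 to 76.4 (Clopper-Pearson) that covers counting error only. Hoxb9 lay under the count filter. With no filter, 20446 genes could be tested, 2.31% passed, 1.21% as higher in Kat6a KO, and Hoxb9 was 1 of the latter (log2 fold change 3.64, adjusted p = 0.0321, edgeR quasi-likelihood test; 0.0412 in DESeq2 and 0.0167 in limma voom, both with no filter). It was singled out after its values were seen. The edgeR call was lost without any of 6 single hearts, Kat6a WT replicates 1, 3 and 4 and Kat6a KO replicates 1, 2 and 3 (adjusted p = 0.0503 to 0.187), and on omitting both hearts with Xist RNA (adjusted p = 0.105). In the sample descriptions the Kat6a KO numbers all precede those of Kat6a WT, and an effect of that order cannot be told apart from genotype.

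Liver markers were looked at beside Hoxb9. Afp, the fetal liver and yolk sac protein alpha-fetoprotein, stood at 0.0677, 0.0479, 0.0290, 0 and 0.566 CPM in Kat6a WT and at 1.04, 0.661 and 12.1 CPM in Kat6a KO hearts (adjusted p = 0.176, edgeR quasi-likelihood test). Its groups did not overlap, as in 9.59% of all genes tested. Alb, encoding albumin, had no count in the Kat6a WT hearts and in Kat6a KO replicate 1, and stood at 0.203 and 1.21 CPM in Kat6a KO replicates 2 and 3. Kat6a KO replicate 3 was highest in Afp, Alb and Hoxb9, and also in Apoa1 (0.720 CPM) and Fgb (0.495 CPM). In Ttr it stood at 0.360 CPM, within the Kat6a WT range of 0.271 to 0.808 CPM, and in Hnf4a at 0.135 CPM, under the 0.348 CPM of Kat6a WT replicate 4. Summed over 7 liver bud markers the level was 49.9 to 57.1 CPM in Kat6a WT and 58.0 to 65.7 CPM in Kat6a KO hearts, most of it from Prox1, which the heart also expresses. Of the 7 markers 3 could be tested and 0 passed in the main test, where 2.67% of all genes tested passed. Afp passed in 3 of 16 alternatives, all of edgeR. These were no robust moderation (adjusted p = 0.0134), the replicate block (0.0013), and Kat6a WT replicate 5 and Kat6a KO replicate 3 both left out (0.0066). The part of such tissue in the Hoxb9 counts was not tested.

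**Figure D5:**
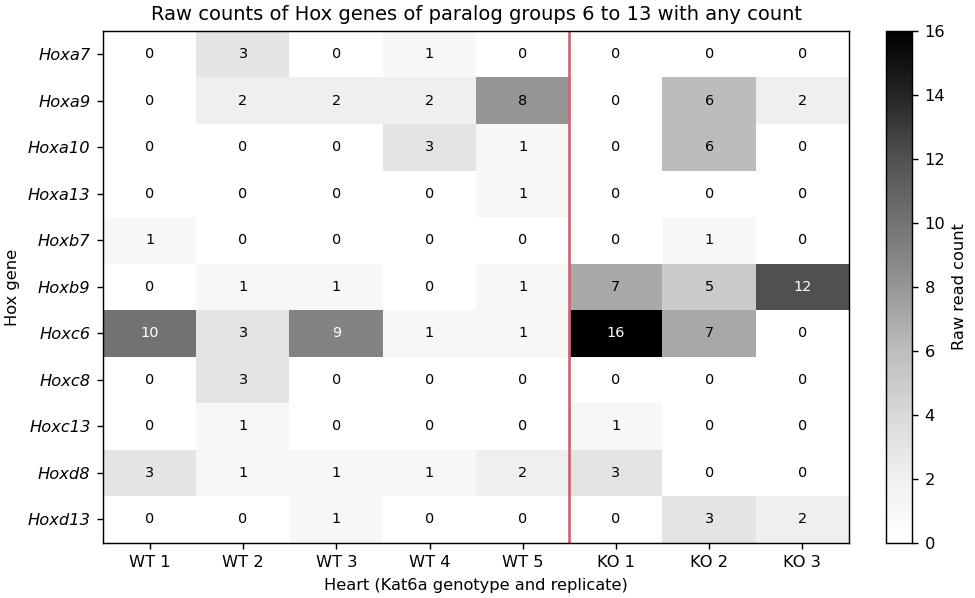
Raw read counts of the 11 Hox genes of paralog groups 6 to 13 with any count (rows) in each heart (columns; the line divides Kat6a WT from Kat6a KO). Hoxb9 has at most 1 count in each Kat6a WT heart and 5 to 12 in the Kat6a KO hearts, while Hoxc6 and Hoxa9 have low and high values in both groups.

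The other genes under the count filter gave no more than 25 counts each over all hearts. Hoxb1, a marker of the posterior second heart field, had 9 counts in Kat6a WT replicate 3, 10 in replicate 5 and none in the other 6 hearts, and with no filter its adjusted p was 0.299 (edgeR quasi-likelihood test). Hoxb5 had 2 counts in Kat6a WT replicate 2 and 7 in replicate 5, and none elsewhere. Zero counts in a Kat6a KO heart allow up to 0.0999 to 0.151 CPM, so an absence was not shown. 

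In the Hoxc and Hoxd clusters no gene could be tested. Hoxc4 had 1, 3, 0, 0 and 13 counts in Kat6a WT and 3, 1 and 4 in Kat6a KO hearts. Hoxc5 had 0, 0, 4, 0 and 7 counts in Kat6a WT and 0, 0 and 7 in Kat6a KO hearts. Both were thus highest, among Kat6a WT hearts, in replicate 5. Hoxd3, which patterns the first neck vertebrae, had 2, 13, 0, 0 and 1 counts in Kat6a WT and 0, 1 and 4 in Kat6a KO hearts. Its neighbour Hoxd4, whose span overlaps that of Hoxd3, had 0, 9, 0, 0 and 2 counts in Kat6a WT and 1, 0 and 0 in Kat6a KO hearts. Kat6a WT replicate 2 held most of the counts of both, and its Hoxd sum of 1.10 CPM compares with 0.0435 to 0.315 CPM in the other 7 hearts. Hoxd8 had 3, 1, 1, 1 and 2 counts in Kat6a WT and 3, 0 and 0 in Kat6a KO hearts, with overlapping groups. The remaining 8 genes, Hoxa7, Hoxa10, Hoxa13, Hoxb7, Hoxc8, Hoxc13, Hoxd1 and Hoxd13, had 1 to 10 counts.

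Markers of the tissues in and around the heart, where Hox genes can be expressed, were compared between genotypes. The counts below stand beside the 1.23% of all genes tested that fell and the 1.44% that rose. Of 7 second heart field and pharyngeal mesoderm markers 6 could be tested. Nkx2-6, a homeobox gene of the pharynx and outflow tract, fell from 3.05 ± 1.20 to 0.253 ± 0.112 CPM (adjusted p = 4.6e-05, edgeR quasi-likelihood test). Tlx1 fell from 2.18 ± 1.23 to 0.649 ± 0.194 CPM (adjusted p = 0.0436), and Fgf10, a growth factor of the field and of the limb, rose from 3.47 ± 0.779 to 7.97 ± 0.276 CPM (adjusted p = 0.000293). Of 6 epicardial markers 4 fell, Wt1, Tcf21, Upk3b and Upk1b, and their summed level was 349 to 407 CPM in Kat6a WT and 244 to 288 CPM in Kat6a KO hearts. Of 7 endothelial and endocardial markers Pecam1 and Tie1 rose and Npr3 fell, and of 8 limb and flank markers Fgf10 rose and Hand2 fell. Neural tube markers summed to 12.1 to 18.6 CPM in Kat6a WT and 10.4 to 11.8 CPM in Kat6a KO hearts, with no overlap, as in 9.59% of all genes tested. Most of that sum was Sox3, at 10.8 to 17.1 and 8.44 to 9.81 CPM (adjusted p = 0.0807, edgeR quasi-likelihood test). Pax6 was on the other side without overlap, at 0.271 to 0.653 and 0.669 to 1.37 CPM (adjusted p = 0.135). Of the 8 neural tube markers 3 could be tested and 0 passed, and Olig2 and Nkx2-2 were at 0. Neural crest markers summed to 210 to 248.9 and 216 to 222 CPM, with Foxd3 and Tfap2b at 0, and erythroid markers to 2979 to 12666 and 4275 to 7230 CPM. The part of any such tissue in the Hox levels was not tested.

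Partners of Hox proteins were far more abundant than the Hox genes themselves. Pbx and Meis proteins and their relatives bind DNA together with Hox proteins, and their 9 genes summed to 588 to 624 CPM per heart. All 9 could be tested: 1 rose, 0 fell and 8 did not pass, beside the 1.44% of all genes tested that rose. The gene that rose is not reported here. Among those that did not pass, Meis1 had a log2 fold change of -0.19 ± 0.06 (SE; adjusted p = 0.133, edgeR quasi-likelihood test), and Pbx3 one of -0.16 ± 0.06 (adjusted p = 0.201).

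Regulators that act on Hox genes are given beside the 2.67% of all genes tested that passed. Of 14 genes upstream of Hox genes, among them retinoic acid receptors and the caudal-type Cdx genes, 8 could be tested and 0 passed. The smallest p was that of Rarb, a retinoic acid receptor and target, at a log2 fold change of -0.26 ± 0.10 (SE; adjusted p = 0.195, edgeR quasi-likelihood test). Next was Rxra, the partner of those receptors (-0.15 ± 0.06, adjusted p = 0.295), and Aldh1a2, which makes retinoic acid, stood at -0.37 ± 0.16 (adjusted p = 0.344). Cdx1 and Cdx2 had no more than 0.0508 CPM in any heart, and Cdx4 no count. Of 17 trithorax genes and partners of MOZ, which keep Hox genes active, 0 passed; Kat6b, the paralog of Kat6a, had a log2 fold change of 0.21 ± 0.08 (SE; adjusted p = 0.182, edgeR quasi-likelihood test), and Wdr5, a core subunit of the MLL complexes, -0.11 ± 0.06 (adjusted p = 0.399). Of 19 Polycomb genes, which keep Hox genes silent, 1 rose, 0 fell and 18 did not pass: Bmi1 rose by 0.54 (log2, SE 0.07), from 31.9 ± 2.43 to 46.1 ± 1.17 CPM (adjusted p = 0.000144, edgeR quasi-likelihood test). Median log2 fold changes were -0.04 for the cofactors, -0.12 for the upstream genes, -0.03 for the trithorax list and -0.01 for the Polycomb list, beside 0.00 over all genes.

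Genes that are not Hox genes but lie in or beside the clusters were mostly unread or not called. Of 28 on the list, 19 are in the count table and 6 could be tested. The call below stands beside the 1.44% of all genes tested that rose and the 1.23% that fell. Skap2, an adaptor protein gene beside the 3' end of the Hoxa cluster, rose by 0.44 (log2, SE 0.11), from 11.6 ± 1.15 to 15.7 ± 1.28 CPM (adjusted p = 0.0228, edgeR quasi-likelihood test), and the other 5 did not pass. Leaving out Kat6a WT replicate 3 or 5, or any 1 of the 3 Kat6a KO hearts, ended that call (0.0521 to 0.156). Evx1, a homeobox gene beyond the 5' end of the Hoxa cluster, had 0, 0, 4, 1 and 7 counts in Kat6a WT and 2, 3 and 6 in Kat6a KO hearts. Hotair, Evx2, Hoxd3os1 and Hoxa11os had no count in any heart, nor had the genes of the cluster microRNAs Mir10a, Mir10b, Mir196a-2, Mir196b and Mir615, whose short mature forms are not what a library of long RNA measures.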

How the data were processed

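RNA of 8 mouse hearts was sequenced from TruSeq stranded libraries, per the labels' protocols. The submitters' processing notes name bcl2fastq, featureCounts and mm10. Aligner, annotation, strand setting and versions were not given in the sources used here. As measured values, the authors deposited raw counts per Entrez gene ID, and the table equals the 8 single files. Of 27179 IDs, 25275 matched a symbol of the GRCm38.p6 RefSeq table. Without a known strand setting, reads of antisense or overlapping genes may be mixed.

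The main test was edgeR 4.0.16 over all 8 hearts and 15086 genes. It used R 4.3.3, TMM scaling, filterByExpr, a robust quasi-likelihood fit, no covariate, and Benjamini-Hochberg at a threshold of 0.05. The test was checked on counts simulated with the same low dispersion for all genes. That check does not cover Hox genes that varied as much as Hoxa4 and Hoxa5. SE is the size of the log2 fold change divided by the square root of F; 95% intervals use the t distribution with the test's degrees of freedom. Levels per kilobase use the gene length the authors deposited. DESeq2 1.42.0 and limma 3.58.1 were alternatives, with other scalings and filters, a replicate block and hearts left out. Members and lists were chosen with earlier results of these data known. The 8 Hox genes tested are those that passed the filter. Every Hox gene was accounted for. Values in each heart were given for the top 3 of a cluster and for genes past the threshold or without overlap, and, from the lists, members past the threshold or else the 2 of smallest p; a further few were named after their values were seen, and some results under this rule are not reported here.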

Additional observations from a re-analysis of the deposited data

Results flagged for a closer look

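In 5 of 13 levels examined over the 5 Kat6a WT hearts, 1 heart lay far from the other 4. The limit used marks about 1 in 20 such groups by chance where values are normally distributed. Low and skewed counts such as these can pass it more often, so 5 of 13 cannot be read against that rate. The 13 levels also share genes. Kat6a WT replicate 5 was far above the rest for Hoxa4, at 2.59 CPM against 0.0338 to 0.609 CPM, and for Hoxa5, at 5.45 CPM against 0.0338 to 1.19 CPM. The same heart was far above the rest for the summed Hoxa cluster, at 11.2 CPM, and for all Hox genes together, at 27.8 CPM. Kat6a WT replicate 2 was far above the rest for the summed Hoxd cluster, at 1.10 CPM against 0.0435 to 0.202 CPM, from 23 counts in that heart.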

How the results depend on the processing

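Of the 8 tested Hox genes, 0 passed in either direction under the main test and each other test, scaling and choice of hearts that kept a count filter, and 0 passed without Kat6a WT replicate 5 and Kat6a KO replicate 3 together, an alternative added after seeing the data. With no count filter 1 of 26 passed, Hoxb9, higher in Kat6a KO. Over 113 alternatives for the single Hox genes described the adjusted p was 0.163 to 1.00 (edgeR, DESeq2 or limma). All genes past the threshold numbered 403; they were 194 to 496 on leaving out 1 heart, 181 with the replicate block, 191 without Kat6a WT replicate 5 and Kat6a KO replicate 3, 580 with DESeq2 and 281 without the 2 hearts with Xist RNA. The median of the tested Hox genes was -1.10 to 0.10 on leaving out 1 heart. Signs of uncalled Hox genes turned in 10 cases, and the cause was not tested. On leaving out 1 heart, log2 fold changes ran from -1.63 to 0.78 for Hoxa4, -2.17 to 0.27 for Hoxa5 and -0.23 to 0.10 for Hoxb3. Without Kat6a WT replicate 5 and Kat6a KO replicate 3 that of Hoxb3 was 0.06. Without the hearts with Xist RNA that of Hoxa5 was 0.49. With the replicate block those of Hoxb4 and Hoxa5 were 0.053 and 0.96. The calls of Hoxb9 with no filter (adjusted p = 0.285, edgeR) and Skap2 (0.0683) were lost under the block, and that of Bmi1 held. Replicate numbers 4 and 5 occur in Kat6a WT only, so those hearts add nothing to the genotype contrast under the block. They are also the 2 hearts with Xist RNA, so these 2 alternatives are not separate checks. No pairing by replicate number was seen. Same-numbered hearts had deviations from their group means correlated at 0.07, -0.12 and -0.05, and not every heart correlated best with its own number. With so few hearts in each group, such correlations cannot exclude a shared litter or batch. Counting error limits every gene under the filter.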
